A study of Mus musculus with 12 samples.

Results

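Transcripts of 7 mouse genes, grouped here as secondary and tertiary granule genes of neutrophils, were followed on 12 one-colour arrays of PUER cells. Cyp4f18 is kept in this group although its product is not a granule protein. The genes were Camp, Ngp, Ltf, Lcn2, Mmp8, Mmp9 and Cyp4f18, taken by name from the scanner output, where 9 of 41174 probes carry these names. All 7 were among the 15061 genes that passed the filter on dim probes and were tested. PUER is a myeloid line from mice without the transcription factor PU.1, in which PU.1 fused to the hormone-binding part of the estrogen receptor has been put back. 4-hydroxytamoxifen (4-OHT) is the ligand that switches the fusion on.

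Each of 4 groups held 3 arrays (replicates A, B and C). They were cells with an shRNA against Hnrnpa0 after 24 h in 2 nM 4-OHT, the same shRNA cells before 4-OHT, cells with the control vector after 24 h in 2 nM 4-OHT, and control cells before 4-OHT. All cells lacked native PU.1, carried the fusion, grew in IL-3, and had been infected with a retrovirus and sorted for its GFP. Per the series' design text, the vectors were run side by side in 3 experiments, each with its own clone. Only 1 shRNA is named, and no array is labelled as cells kept in vehicle, so drug, time in culture and activation of the fusion were not separated.

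Neutrophils fill their granules in waves during maturation. Primary granules, with myeloperoxidase and elastase, come first. Secondary (specific) granules follow at the myelocyte stage and hold lactoferrin, cathelicidin, lipocalin 2 and the collagenase Mmp8, and tertiary granules, with the gelatinase Mmp9, come last. Transcripts of secondary granule proteins are commonly used to show that a granulocyte precursor has passed the promyelocyte stage, and C/EBP epsilon is the factor best known for driving them. Mmp9 and Lcn2 are also made by activated macrophages. Cyp4f18 encodes a microsomal enzyme that inactivates leukotriene B4 by hydroxylation, and is not itself a granule protein.

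The probes are 60-mers, and those read for 5 of the genes are given because the levels of these genes below are what these stretches of transcript hybridized. In array build mm7 the Camp probe A_51_P180423 lies on chromosome 9 from 109544107 to 109544166 (minus strand), in the part that codes for the mature cathelicidin peptide. The Ngp probe A_52_P429450 lies on chromosome 9 from 110119702 to 110120250 (plus strand). The Ltf probe A_52_P15388 lies on chromosome 9 from 110738071 to 110738130 (plus strand). The Lcn2 probe A_51_P510156 lies on chromosome 2 from 32392828 to 32393072 (minus strand). The Cyp4f18 probe A_51_P238094 lies on chromosome 8 from 70491704 to 70491763 (minus strand).
Camp: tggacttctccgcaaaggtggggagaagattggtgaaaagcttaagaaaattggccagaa
Ngp: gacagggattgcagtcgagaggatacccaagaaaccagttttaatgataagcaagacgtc
Ltf: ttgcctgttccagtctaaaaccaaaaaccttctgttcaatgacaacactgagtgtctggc
Lcn2: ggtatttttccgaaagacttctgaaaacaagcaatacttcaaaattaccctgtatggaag
Cyp4f18: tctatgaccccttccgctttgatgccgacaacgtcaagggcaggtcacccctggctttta
The longest run of bases that probes of different genes in the set shared was 7. The Ngp and Lcn2 probes span 549 and 245 bases of genome, more than their own length, so they cross an exon junction. The other 4 probes were the second Ltf probe A_51_P188141 (chromosome 9, 110733462 to 110736512), the Mmp8 probe A_51_P231320 (chromosome 9, 7566361 to 7566420), the tested Mmp9 probe A_52_P507214 (chromosome 2, 164695774 to 164695833) and the second Mmp9 probe A_51_P401797 (chromosome 2, 164695457 to 164695516), which was not tested.

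A level here is log2 intensity less the 75th percentile of the same array, so 0 is the 75th percentile. That percentile was an intensity of 1196 on the dimmest array and 2583 on the brightest, and the share of spots well above background ranged over the arrays from 50.3% to 55.7%. Hnrnpa0 was lower in shRNA than in control cells by 2.10 (log2) after 4-OHT (limma adjusted p = 0.00511) and by 1.54 before it (adjusted p = 0.0127), with groups that did not overlap. With slide as a fixed block these 2 differences were -1.38 each, with adjusted p = 0.0897 after 4-OHT and 0.114 before it. Per the file headers, all 3 shRNA arrays after 4-OHT shared slide 3 with shRNA array C before it. Slide 2 carried shRNA arrays A and B before 4-OHT with control arrays B and C after it, and slide 1 carried control array A after 4-OHT with all 3 control arrays before it. Slide and vector therefore cannot be told apart within a treatment state.

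All 7 genes passed the test under 4-OHT in both vectors, and they did not move one way. Mmp9, Mmp8, Ltf, Cyp4f18 and Lcn2 rose, and Camp and Ngp fell. The count was 7 of 7 in shRNA cells and 7 of 7 in control cells. Ltf, below background on every array before 4-OHT, met the filter on dim probes only through arrays after it. Only a rise could therefore be found for Ltf. Over all 15061 genes, 38.3% passed in shRNA cells (16.5% higher, 21.8% lower) and 40.5% in control cells (17.5% higher, 23% lower). The 3 arrays after 4-OHT were clear of the 3 before it for each of the 7 genes in both vectors, which was also so for 51.5% of all genes in shRNA cells and 51% in control cells. The median log2 change of the 7 genes was 1.83 in shRNA cells and 1.84 in control cells, beside -0.08 and -0.07 over all genes. With Ltf, which was below background before 4-OHT, at the lower limit of its change, the median was 1.12 in shRNA cells and 0.82 in control cells. In these bulk samples, fewer cells that carry a transcript and less transcript per cell cannot be told apart.

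**Figure D1:**
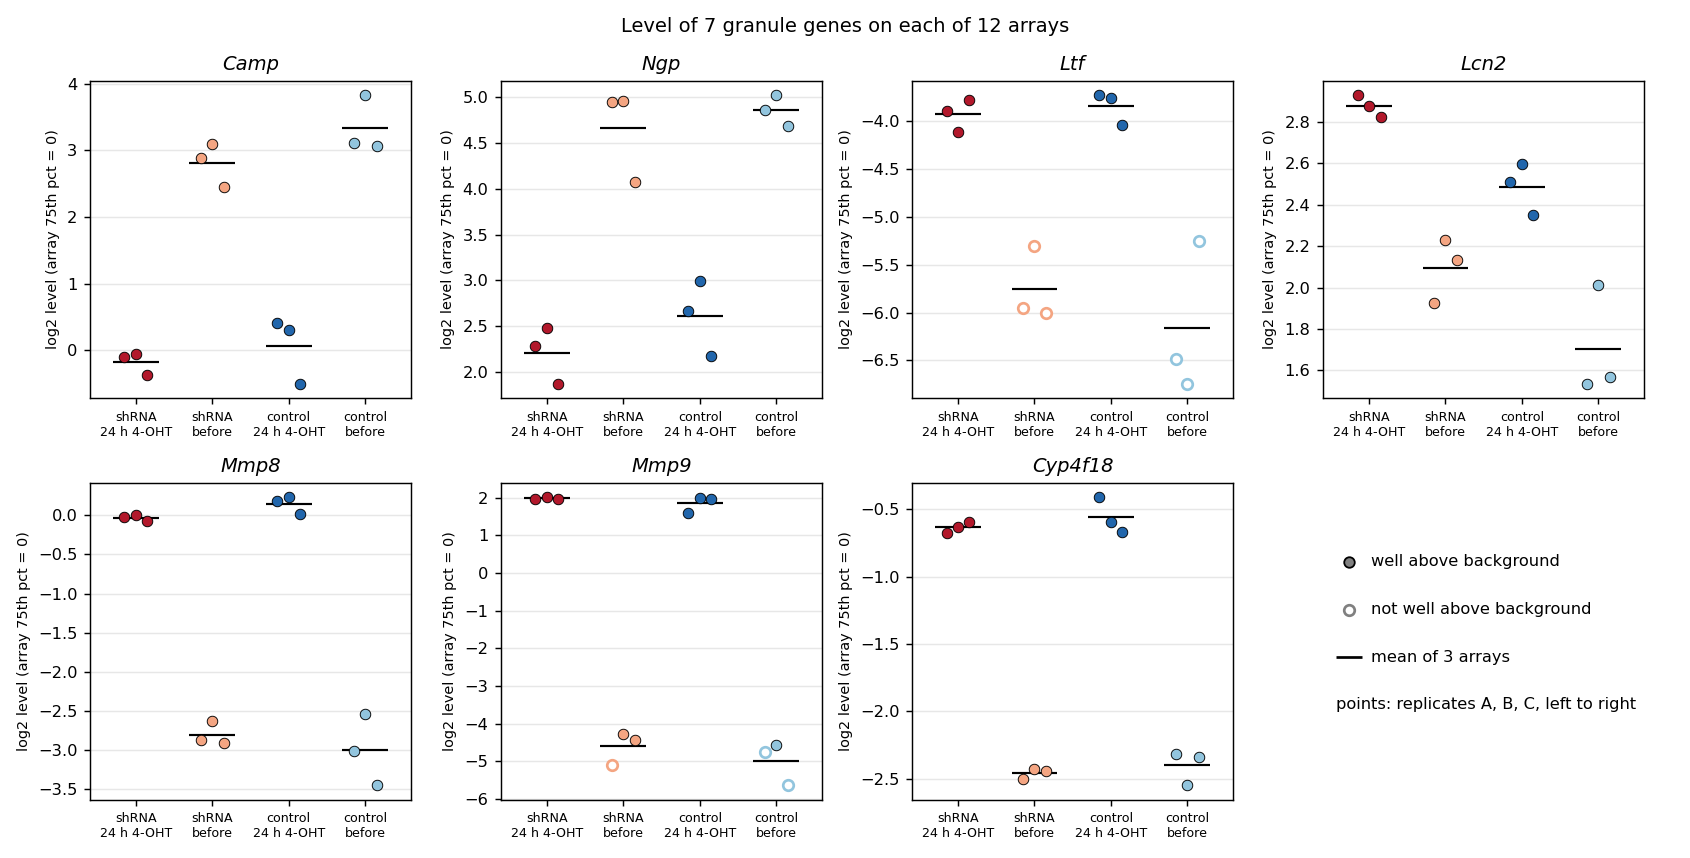
Level of each gene (log2 intensity, array's 75th percentile = 0) on the 12 arrays, by group; filled points were well above background, open points were not, and bars are means of 3 arrays. Camp and Ngp sit lower after 4-OHT in both vectors and the other 5 genes sit higher, with Ltf below background on all 6 arrays before 4-OHT.

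Camp encodes the cathelicidin CRAMP, an antimicrobial peptide precursor stored in secondary granules. Its level was -0.10, -0.06 and -0.37 on the shRNA arrays after 4-OHT (A, B and C in order), against 2.88, 3.098 and 2.44 on the shRNA arrays before it. It was 0.40, 0.31 and -0.50 on the control arrays after 4-OHT, against 3.11, 3.82 and 3.07 before it. Every array after 4-OHT lay below every array before it, by more than the spread of any group. Camp fell 7.89-fold in shRNA cells (log2 -2.98, SE 0.28, adjusted p = 1.13e-05) and 9.61-fold in control cells (log2 -3.26, adjusted p = 4.95e-06). By fitted log2 change it was in place 46 among the falls in shRNA cells and in place 43 in control cells.

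Ngp, the neutrophilic granule protein, belongs to the same cathelicidin-like family in the mouse and lies on the same chromosome as Camp and Ltf. Its level was 2.28, 2.48 and 1.87 in shRNA cells after 4-OHT, against 4.95, 4.96 and 4.08 in shRNA cells before it. In control cells it was 2.66, 2.995 and 2.18 after 4-OHT, against 4.87, 5.02 and 4.69 before it. The groups were again apart, and shRNA array C before 4-OHT, the one on slide 3, was the lowest of the 6 arrays before 4-OHT for both Ngp and Camp. Ngp fell 5.48-fold in shRNA cells (log2 -2.45, SE 0.27, adjusted p = 4.36e-05) and 4.75-fold in control cells (log2 -2.25, adjusted p = 7.52e-05). The spot was saturated on control array B and shRNA array A before 4-OHT, so the level there is a lower limit. Without shRNA array C before 4-OHT the change in shRNA cells was -2.75 for Ngp and -3.16 for Camp. Within slide 3, where that array stood alone before 4-OHT, it was -1.87 for Ngp (adjusted p = 0.0229) and -2.62 for Camp (adjusted p = 0.00395).

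Ltf encodes lactoferrin, the iron-binding protein of secondary granules. Its tested probe read -3.89, -4.11 and -3.78 in shRNA cells after 4-OHT, against -5.95, -5.31 and -6.00 in shRNA cells before it. It read -3.73, -3.75 and -4.04 in control cells after 4-OHT, against -6.48, -6.74 and -5.25 in control cells before it. All 6 arrays after 4-OHT were well above background and none of the 6 before it was. Ltf was therefore at least 2.18-fold higher after 4-OHT in shRNA cells (fitted log2 1.83, SE 0.33, adjusted p = 0.00149) and at least 1.77-fold higher in control cells (fitted log2 2.32, adjusted p = 0.000263). Such a bound sets the brighter mean against the lowest signal that was well above background on each array of the dim group. The second Ltf probe was also below background on all 6 arrays before 4-OHT, and on control array C after it. It was at least 1.54-fold higher after 4-OHT in shRNA cells (adjusted p = 3.08e-05 over 22362 probes), and in control cells, where it passed as well (adjusted p = 0.000198), the background allowed no fold. With normexp background correction the Ltf change was 0.45 in shRNA cells (adjusted p = 0.155, not passed) and 0.89 in control cells (adjusted p = 0.00747), and within slide 1 it was 2.43 in control cells (adjusted p = 0.0833, not passed).

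Lcn2 encodes lipocalin 2, which binds bacterial siderophores and so withholds iron. Its level was 2.93, 2.88 and 2.82 in shRNA cells after 4-OHT, against 1.92, 2.23 and 2.13 in shRNA cells before it. In control cells it was 2.51, 2.59 and 2.35 after 4-OHT, against 1.54, 2.01 and 1.57 before it. The states did not overlap within either vector, and the 3 shRNA arrays after 4-OHT were the highest of the 12. Lcn2 rose 1.72-fold in both vectors (log2 0.78, SE 0.13), with adjusted p = 0.000821 in shRNA cells and 0.000740 in control cells, the smallest change of the 7 genes. Within slide 1 the change in control cells was 0.81 (adjusted p = 0.0940, not passed), and within slide 3 that in shRNA cells was 0.74 (adjusted p = 0.0188).

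Mmp8 encodes neutrophil collagenase, a matrix metalloproteinase of secondary granules. It read -0.03, 0.00 and -0.07 in shRNA cells after 4-OHT, against -2.87, -2.64 and -2.91 in shRNA cells before it. It read 0.18, 0.23 and 0.01 in control cells after 4-OHT, against -3.02, -2.55 and -3.45 before it. All 12 arrays were well above background, and every array after 4-OHT was above every array before it. Mmp8 rose 6.84-fold in shRNA cells (log2 2.77, SE 0.18, adjusted p = 9.23e-07) and 8.86-fold in control cells (log2 3.15, adjusted p = 2.85e-07).

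Mmp9 encodes gelatinase B, the defining protease of tertiary granules. Its tested probe, A_52_P507214, is printed 10 times on the array, so the spread between spots can be set beside the spread between arrays. It read 1.96, 2.02 and 1.98 in shRNA cells after 4-OHT, against -5.09, -4.27 and -4.42 in shRNA cells before it. It read 1.60, 2.01 and 1.97 in control cells after 4-OHT, against -4.76, -4.56 and -5.63 before it. The gap between states was several times the distance between any 2 arrays of a state. Mmp9 rose 95.8-fold in shRNA cells (log2 6.58, SE 0.28, adjusted p = 3.52e-08) and 115-fold in control cells (log2 6.85, adjusted p = 1.99e-08). It stood in place 13 among the rises of all genes in shRNA cells and in place 15 in control cells.

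The base of the Mmp9 rise was dim. The probe was well above background before 4-OHT on 2 of 3 shRNA arrays and 1 of 3 control arrays. Among its repeated spots the SD on an array was between 0.0312 and 0.0489 (log2) after 4-OHT and between 0.134 and 0.789 before it. On control array C before 4-OHT none of 10 spots was well above background. With normexp background correction the Mmp9 change was 5.33 in shRNA cells and 5.17 in control cells, both past the threshold. The second Mmp9 probe, A_51_P401797, was marked as an outlier spot on all 3 shRNA arrays after 4-OHT and on control array A after it, and was not tested. On the arrays that kept it, it read 1.85 and 1.81 in control cells after 4-OHT, against -5.16, -4.23 and -4.93 before it.

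**Figure D2:**
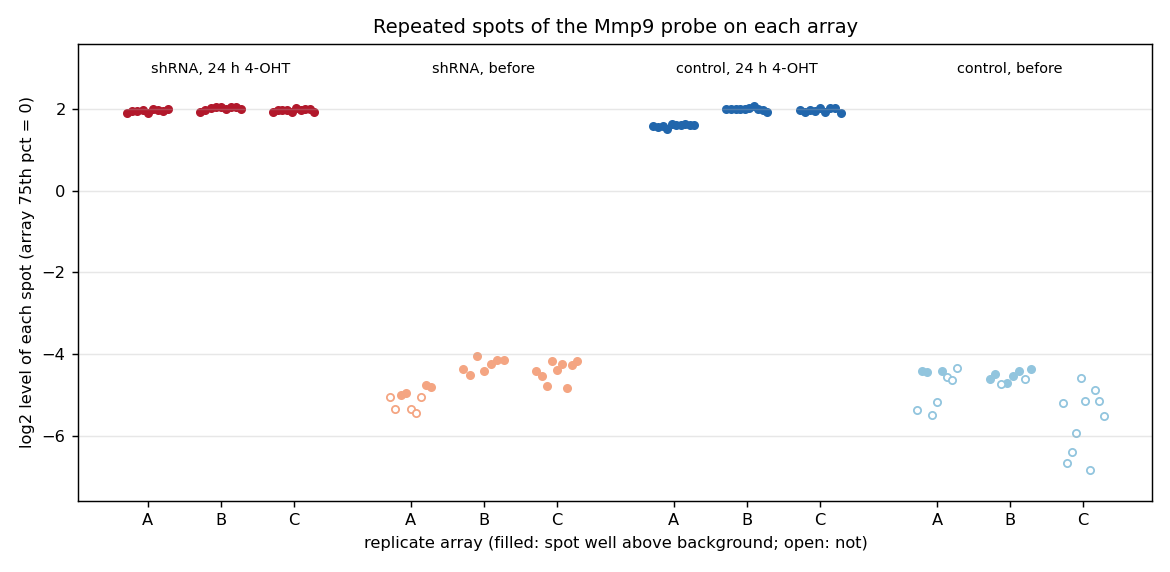
Each repeated spot of the tested Mmp9 probe (log2 intensity, array's 75th percentile = 0) on each array; filled spots were well above background and open spots were not. Spots lie within a narrow band on every array after 4-OHT and scatter before it, most widely on control array C.

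Cyp4f18 read -0.68, -0.63 and -0.59 in shRNA cells after 4-OHT, against -2.50, -2.43 and -2.45 in shRNA cells before it. It read -0.41, -0.59 and -0.67 in control cells after 4-OHT, against -2.31, -2.55 and -2.34 before it. The arrays of each group lay close together, and the groups before and after 4-OHT were far apart. Cyp4f18 rose 3.54-fold in shRNA cells (log2 1.83, SE 0.09, adjusted p = 7.23e-08) and 3.58-fold in control cells (log2 1.84, adjusted p = 5.56e-08). It had the smallest SE of the set.

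**Figure D3:**
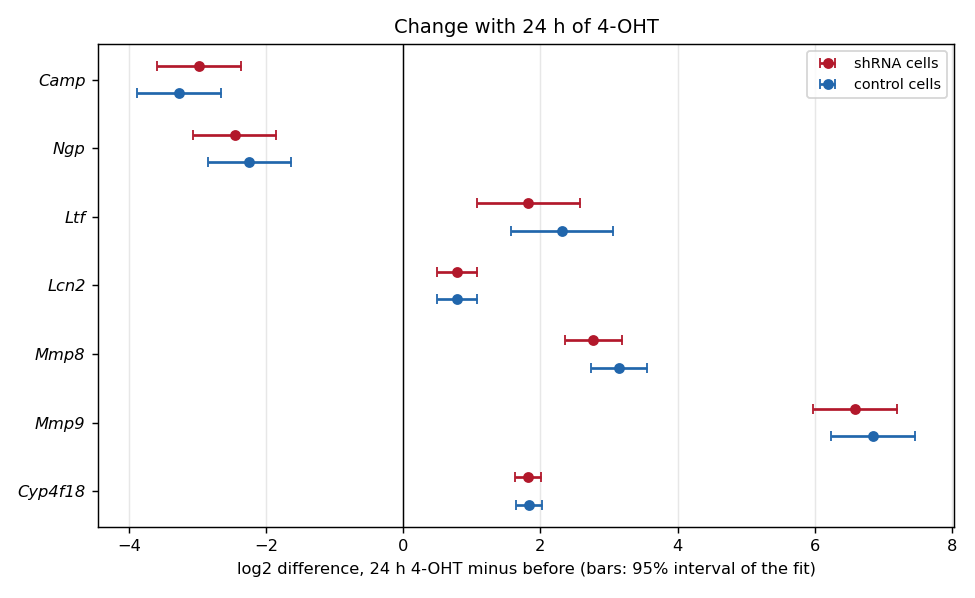
Log2 difference, 24 h 4-OHT minus before, of each gene in shRNA and control cells, with the 95% interval of the limma fit. Camp and Ngp lie below 0 and the other 5 genes above it; for Ltf the fitted value rests on signals below background before 4-OHT.

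Between the vectors none of the 7 genes passed limma's threshold. The count was 0 of 7 after 4-OHT, where 16.7% of all genes passed (7.85% higher, 8.82% lower), and 0 of 7 before it, where 0.378% passed (0.146% higher, 0.232% lower). The split of calls over all genes moved with the scaling: after 4-OHT 47.1% of them were higher in shRNA cells, against 76.9% with median scaling, 35.4% with quantile scaling and 30.9% with normexp, and before it 38.6%, against 61.5%, 9.64% and 0% in the same order. With normexp the median of all genes after 4-OHT was -0.13. Lcn2 came nearest: it was 0.39 higher in log2 (1.31-fold) in shRNA than in control cells after 4-OHT, with an interval from 0.10 to 0.68 and adjusted p = 0.0657. It was also 0.39 higher before 4-OHT, with the same interval and adjusted p = 0.135. At an unadjusted limma p under 0.05 Lcn2 was the only one of the 7 in either state. Of all 15061 genes, 5215 were under that limit after 4-OHT and 3362 before it, so this does not single out Lcn2. The Lcn2 groups did not overlap after 4-OHT, which held for 38.6% of all genes. They overlapped before it, where 32.5% of all genes did not. Lcn2 after 4-OHT passed with the replicate letter as a block (adjusted p = 0.0413), with limma's trend and robust moderation (adjusted p = 0.0247) and without control array B before 4-OHT (adjusted p = 0.0346), and the slide as a fixed block gave 0.35 with adjusted p = 0.858.

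For the other 6 genes the interval of the difference between vectors included 0 in both states. Mmp8 after 4-OHT was 0.18 lower in shRNA cells, with an interval from -0.58 to 0.23 and adjusted p = 0.528, although the groups did not overlap. Ngp was 0.40 lower after 4-OHT (-1.01 to 0.20) and 0.19 lower before it (-0.80 to 0.41). Camp was 0.25 lower after 4-OHT (-0.86 to 0.37) and 0.53 lower before it (-1.14 to 0.08). These intervals leave room for differences of the size seen for Lcn2 and above. Cyp4f18 had the narrowest, from -0.26 to 0.11 after 4-OHT and from -0.25 to 0.13 before it. Mmp9 differed by 0.13 after 4-OHT (-0.49 to 0.74) and by 0.39 before it (-0.22 to 1.00). The tested Ltf probe differed by -0.09 after 4-OHT (-0.83 to 0.66) and the second Ltf probe, which control array C did not show above background, by 0.37.

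The difference between the vectors' responses to 4-OHT (shRNA less control) also passed for 0 of 7 genes, as for 0% of all genes. On the tested probes it ran from -0.49 for Ltf (-1.54 to 0.56) to 0.28 for Camp (-0.58 to 1.15). The second Ltf probe gave 0.64. Neither Ltf probe was above background on any array before 4-OHT, so the size and sign of the Ltf value cannot be read. The difference between responses was -0.37 for Mmp8 (-0.95 to 0.20), -0.26 for Mmp9 (-1.13 to 0.60) and -0.21 for Ngp (-1.07 to 0.65). It was -0.01 for Cyp4f18 (-0.28 to 0.25) and 0.00030 for Lcn2 (-0.41 to 0.41). Of all 15061 genes, none passed limma's threshold and 791 had an unadjusted p under 0.05, with a lowest adjusted p of 0.282.

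**Figure D4:**
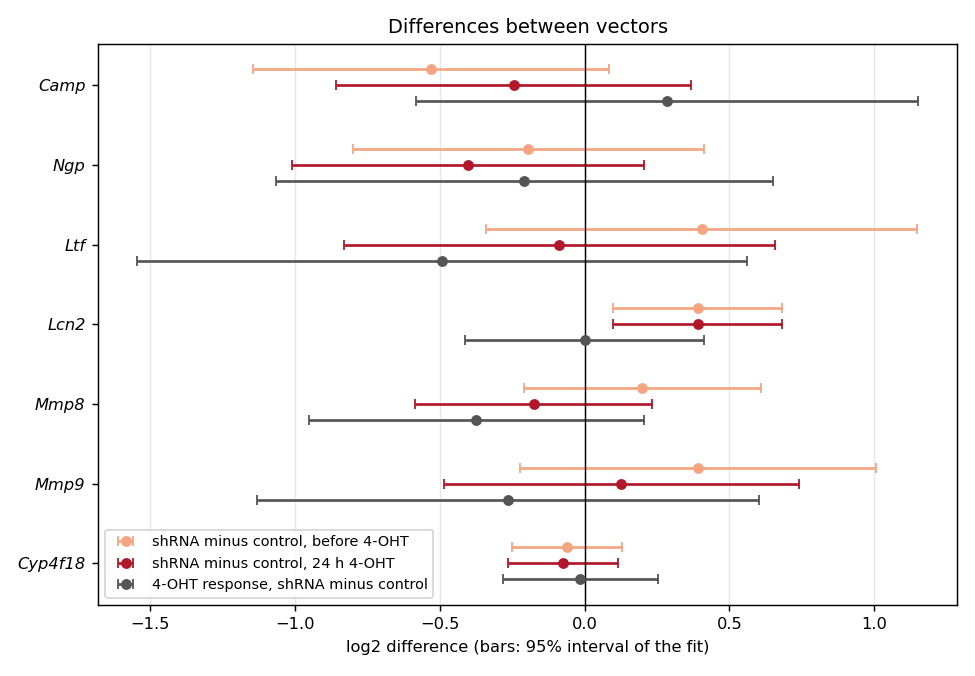
Log2 difference of shRNA minus control cells before and after 24 h of 4-OHT, and the difference between their 4-OHT responses, with the 95% interval of the fit. Every interval includes 0 except those of Lcn2 before and after 4-OHT, which run from 0.10 to 0.68 before adjustment for multiple tests. For Ltf the values before 4-OHT and between responses rest on signals below background before 4-OHT.

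Other genes of late granulocytes moved both ways. Of 27 listed, 21 were tested, of which 5 rose and 7 fell in shRNA cells and 5 rose and 9 fell in control cells. These counts and those of the lists below stand beside the shares over all genes. A gene below background on every array of a state could be tested only through arrays of the other state. The shares were 16.5% higher and 21.8% lower in shRNA cells, and 17.5% higher and 23% lower in control cells. Over the genes that were not saturated in both states and gave a fold, with limits taken at their value, the median log2 change was -0.31 in shRNA cells (16 genes) and -0.39 in control cells (17 genes). Lrg1, a secreted glycoprotein, fell 6.70-fold in shRNA cells (fitted on 2 of 3 arrays before 4-OHT) and 7.44-fold in control cells. Fcnb, the lectin ficolin B, fell 5.88-fold and 5.81-fold in the same order, and Olfm4, a protein of a subset of neutrophil secondary granules, 3.78-fold and 3.82-fold. The acute-phase glycoprotein genes fell too, Orm2 by 2.79-fold in shRNA cells and Orm1 by 4.29-fold in control cells. Upward, the phagosomal metal transporter Slc11a1 rose 38.0-fold in shRNA cells and 45.5-fold in control cells (fitted on 2 of 3 arrays after 4-OHT), the integrin Itgam 3.71-fold and 5.22-fold, and the resistin-like Retnlg 2.30-fold and 2.42-fold. The receptor Trem1 rose 2.12-fold in shRNA cells, and the chitinase-like Chil3 at least 2.47-fold in control cells. Up to 4 genes a direction were named in each vector, so a gene named for 1 vector could also have passed in the other. Chil3 also passed as higher in shRNA cells (fitted log2 0.83), and Orm1 as lower there (fitted log2 -1.47). Adam8, Hp and Slpi were saturated in both states, so no change could be read. After 4-OHT 4 of the 21 were higher in shRNA than in control cells and none lower, beside 7.85% higher and 8.82% lower of all genes. The 4 were Orm1 (2.03-fold), Orm2 (1.71-fold), Cd177 (1.55-fold) and Pglyrp1 (1.29-fold). With normexp Orm1 was 1.31-fold higher (adjusted p = 0.112) and Orm2 1.17-fold (adjusted p = 0.160), neither past the threshold.

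Primary granule genes mostly fell or were saturated. Of 8 tested, 1 rose and 3 fell in shRNA cells, and 1 rose and 4 fell in control cells. Elane, the neutrophil elastase gene, fell 2.92-fold in shRNA cells and 3.42-fold in control cells, Prtn3 (proteinase 3) 2.33-fold and 2.77-fold, and Prss57 2.25-fold and 2.83-fold. The one that rose was Ctsc, the lysosomal protease that activates granule serine proteases, at least 13.4-fold in shRNA cells and at least 15.1-fold in control cells. Mpo, Ctsg and Ms4a3 did not pass in either vector and were saturated in at least 1 state.

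Of 12 regulators of granulocyte genes, 10 were tested, and 1 rose and 6 fell in each vector. Gfi1, a repressor needed for granulocyte formation, fell 3.64-fold in shRNA cells and 5.42-fold in control cells. Klf5 fell 1.97-fold and 2.28-fold, Cebpa 1.80-fold and 1.95-fold, and Spi1, the PU.1 gene, 1.34-fold and 1.51-fold. All cells lacked native PU.1 and carried the fusion, and whether the Spi1 signal came from the fusion was not tested. The retinoic acid receptor gene Rara rose 2.97-fold in shRNA cells and 5.15-fold in control cells, from a level above background on 2 of 3 shRNA arrays and 1 of 3 control arrays before 4-OHT; with normexp it rose 1.77-fold and 2.65-fold. Cebpe was not analysed here. After 4-OHT, 4 of the 10 were higher and 1 lower in shRNA than in control cells, beside 7.85% higher and 8.82% lower of all genes. The 5 were Gfi1 (1.52-fold), Klf5 (1.28-fold), Csf3r (1.26-fold) and Cebpa (1.24-fold) upward, and Stat3 (1.32-fold) downward. With slide as a fixed block 1 gene of the whole table passed this comparison, and none of these 5 or of the 4 late granulocyte genes above did. Under normexp, quantile and median scaling all 9 kept their direction, with Gfi1, Cebpa and Cd177 passing in each.

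Genes whose products meet the 7 proteins moved both ways. Of 14 inhibitors, receptors and leukotriene B4 pathway genes, 10 were tested, of which 4 rose and 3 fell in shRNA cells and 5 rose and 3 fell in control cells. Timp1, the inhibitor that binds the Mmp9 proenzyme, rose 1.71-fold in shRNA cells and 1.76-fold in control cells, and Timp2 fell 2.67-fold and 2.03-fold. Fpr2, a formyl peptide receptor for cathelicidin peptides, rose at least 17.3-fold in shRNA cells and at least 13.05-fold in control cells, and Fpr1 rose 16.3-fold, from a level above background on 1 of 3 shRNA arrays before 4-OHT, and at least 12.2-fold. With normexp the Fpr1 change was 5.82-fold in shRNA cells. Lrp1, an uptake receptor for lactoferrin and Mmp9, rose 2.70-fold and 2.41-fold. In the pathway that makes and senses the Cyp4f18 substrate, Lta4h, the hydrolase that forms leukotriene B4, fell 1.86-fold in shRNA cells and 2.16-fold in control cells, and its receptor gene Ltb4r1 fell 2.38-fold and 2.42-fold. Alox5, the lipoxygenase that starts leukotriene synthesis, rose at least 1.70-fold in control cells and read 0.36 higher in log2 in shRNA cells (adjusted p = 0.0507).

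Other matrix metalloproteinase genes moved both ways. Of 11 listed, 6 were tested, of which 2 rose and 2 fell in shRNA cells and 2 rose and 3 fell in control cells; Mmp12, the macrophage elastase, rose at least 11.5-fold in shRNA cells and at least 14.0-fold in control cells, and Mmp19 2.84-fold and 3.07-fold. Mmp11 fell 2.47-fold and 2.34-fold, and Mmp13, a collagenase like Mmp8, 3.39-fold (above background on 1 of 3 shRNA arrays after 4-OHT) and 1.84-fold. With normexp the Mmp13 fall was 2.00-fold in shRNA cells and 1.27-fold in control cells (adjusted p = 0.182, not passed). Of 7 other Cyp4f genes, 2 were tested: Cyp4f16 rose 1.24-fold in control cells (adjusted p = 0.116 with normexp, not passed), and Cyp4f13 passed in neither vector. Among the listed genes above that were dim in a state, normexp gave smaller changes: Ctsc rose 6.69-fold in shRNA cells and 9.26-fold in control cells, Fpr2 9.53-fold and 8.52-fold, and Mmp12 7.23-fold and 13.1-fold, and Orm1 fell 2.25-fold in control cells. Of the 4-OHT folds above, slide as a fixed block lost the calls of Retnlg (adjusted p = 0.0709), Rara (0.0649) and Spi1 (0.0807) in shRNA cells. In control cells it lost that of Mmp13 (0.145). Counted calls without a fold were lost too in shRNA cells: the regulators Csf3r (0.124) and Cux1 (0.187), and the late granulocyte gene Padi4 (0.0578). The eosinophil marker Prg2 (0.219), counted below, also lost its call there.

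**Figure D5:**
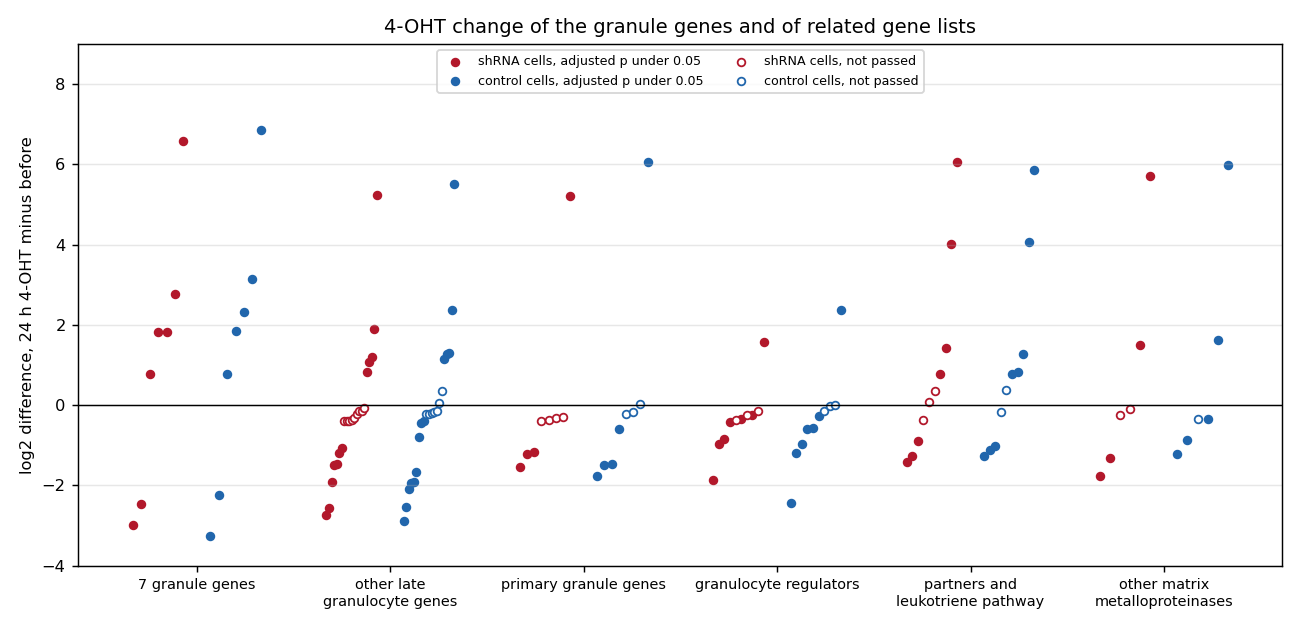
Log2 difference, 24 h 4-OHT minus before, of each tested gene in 6 lists, in shRNA and control cells; filled points had a limma adjusted p under 0.05. Genes of each list lie on both sides of 0, the 7 granule genes from -2.98 to 6.58 in shRNA cells and from -3.26 to 6.85 in control cells.

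Markers of other cell types moved beside these genes. Over all genes 16.5% rose and 21.8% fell under 4-OHT in shRNA cells, and 17.5% rose and 23% fell in control cells. Of 8 monocyte and macrophage markers 7 were tested, and 7 rose in each vector. A sum was taken over 6 of the 8, Mrc1 included, without Cd14, which was saturated, and Adgre1, which lacked a value on an array. Relative to the 75th percentile, the summed level was 3.36 to 3.78 in shRNA cells after 4-OHT, against 0.146 to 0.159 before it. In control cells it was 4.03 to 4.20 after 4-OHT, against 0.130 to 0.156 before it. Fcgr1, Itgax and Mmp12 were above background on no array before 4-OHT. They met the filter on dim probes only through arrays after it, so only a rise could be found for them. Mrc1 was below background in all 4 groups and was not tested. All 7 neutrophil markers on the array were above background in every group, and Ly6g was not analysed here. Of these 7, 2 rose (Itgam and Retnlg) and 1 fell (Csf3r) in shRNA cells, and 2 rose (Itgam and Retnlg) and 2 fell in control cells. The Csf3r fall in shRNA cells was small (log2 -0.34). It did not pass limma's threshold with normexp (adjusted p = 0.0877), median scaling (0.0563) or slide as a fixed block (0.124). S100a8 and S100a9 were saturated, and the other 5 summed to 5.60 to 6.22 in shRNA cells after 4-OHT, against 6.24 to 6.51 before it, and to 3.95 to 4.49 in control cells after 4-OHT, against 4.00 to 5.34 before it. Mast cell and basophil markers summed to 2.11 to 2.30 in shRNA cells after 4-OHT, against 5.53 to 5.86 before it. In control cells they summed to 1.69 to 1.77 after 4-OHT, against 5.29 to 5.48 before it. Of 5 tested 3 fell in each vector, in shRNA cells Kit (log2 -1.54), Gata2 (-1.14) and Mcpt8 (-1.04). Cpa3 and Tpsb2 were below background in all 4 groups, so these sums do not by themselves show mast cells or basophils. Of 4 eosinophil markers tested 2 rose in shRNA cells and 3 in control cells, with Il5ra below background in all 4 groups and sums of 0.232 to 0.394 in shRNA cells after 4-OHT, against 0.0897 to 0.0992 before it, and of 0.378 to 1.46 in control cells after 4-OHT, against 0.0602 to 0.371 before it. Of 3 erythroid markers tested 2 fell in each vector. Whether these cell markers had a part in the changes of the granule genes was not tested.

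The genes most like each of the 7 across the arrays were named by Pearson r with its levels over 12 arrays, among 14370 other genes with a value on every array. The arrays part by 4-OHT, so each r mainly says that a gene's levels parted between those states too, whatever the size of its change. For Camp the nearest were 2810416G20Rik (r 0.997), the fatty acid elongase Elovl3 (0.993) and the nuclear receptor Pparg (0.992). For Ngp they were 2810416G20Rik (0.990), Olfm4 (0.990) and Mbd1 (0.989). For Mmp9 they were Sla (0.997), Ltb (0.997) and Pram1 (0.996), and for Mmp8 Usp18 (0.998), Pilrb2 (0.996) and Pilra (0.996). For Cyp4f18 they were Ptpn6 (0.998), Gpr65 (0.998) and Pik3cd (0.997), and for Lcn2, at lower values, Fam8a1 (0.966), Syk (0.965) and B4galt3 (0.964). For Ltf they were the unnamed transcripts AK084166 (0.969) and NAP054660-1 (0.959) and the gene Erlin1 (0.959).

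Promoter sequence was looked at because the genes split into those that fell and those that rose. RefSeq start sites on GRCm38.p6 gave the 250 bases before the start for 6 of the 7 genes, all but Mmp9. Those of the falling Camp and Ngp and of the rising Mmp8 and Cyp4f18 are printed, with capitals on matches to GAGGAA, the core bound by PU.1 and its ETS relatives, and to TTGCNNAA, a form of the C/EBP site, on either strand. The Camp window is chr9:109849457-109849706 (minus strand), Ngp chr9:110419558-110419807 (plus), Mmp8 chr9:7558179-7558428 (plus) and Cyp4f18 chr8:72009627-72009876 (minus).
Camp: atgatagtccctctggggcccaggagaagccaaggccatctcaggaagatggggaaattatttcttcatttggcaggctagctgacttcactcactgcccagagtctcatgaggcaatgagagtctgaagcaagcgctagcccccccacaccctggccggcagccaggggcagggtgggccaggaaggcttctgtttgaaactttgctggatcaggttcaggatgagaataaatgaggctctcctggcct
Ngp: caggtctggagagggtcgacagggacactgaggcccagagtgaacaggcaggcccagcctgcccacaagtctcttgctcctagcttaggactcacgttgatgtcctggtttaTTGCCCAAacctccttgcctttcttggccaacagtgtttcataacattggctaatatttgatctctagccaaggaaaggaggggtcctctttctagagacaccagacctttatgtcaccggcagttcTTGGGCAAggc
Mmp8: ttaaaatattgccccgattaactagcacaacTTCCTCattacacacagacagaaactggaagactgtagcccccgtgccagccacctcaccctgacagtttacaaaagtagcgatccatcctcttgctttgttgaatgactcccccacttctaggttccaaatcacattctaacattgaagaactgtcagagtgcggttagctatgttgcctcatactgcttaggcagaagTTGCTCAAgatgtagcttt
Cyp4f18: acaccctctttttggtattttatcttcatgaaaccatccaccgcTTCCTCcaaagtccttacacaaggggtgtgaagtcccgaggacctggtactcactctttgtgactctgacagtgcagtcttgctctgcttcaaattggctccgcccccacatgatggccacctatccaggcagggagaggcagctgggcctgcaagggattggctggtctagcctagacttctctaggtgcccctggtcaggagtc
GAGGAA was in 4 of 6 windows (Ltf, Lcn2, Mmp8 and Cyp4f18), and in 23.3% of 32851 mouse promoters of that length. TTGCNNAA was in 4 of 6 (Ltf, Ngp, Lcn2 and Mmp8), and in 9.56% of all. The other 4 motifs searched were GAGGAAGT, in Mmp8 alone and 2.44% of all, TTGCNNAAT, in Ltf alone and 2.11% of all, CCAAT, in Ltf, Ngp and Cyp4f18 and 33.8% of all, and TATAAA, in none of the 6 and 12.4% of all. Both strands were read, GAGGAAGT contains GAGGAA, TTGCNNAAT contains TTGCNNAA, and the CCAAT match of Ltf overlaps its TTGCNNAAT match. All 6 motifs were chosen with the levels known. Camp held none of them in this window, which says only that these letters are not there.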

How the data were processed

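RNA from 12 PUER cultures was hybridized to Agilent arrays of design 014868. Per the file headers, the authors read the scans with Agilent Feature Extraction 9.5.3.1 (9.5 per the submitters' processing notes), and deposited a linear Cy3 intensity for each spot, background-subtracted and detrended but not scaled across arrays. Their rounded summary differs from it by at most 0.497%. From these, log2 intensity less each array's 75th percentile was computed, without control and outlier-marked spots; repeated spots were averaged. Probe names came from transcript identifiers (22951 of 41174 probes), symbols (6659) or synonyms (3109) in the mouse gene reference, and otherwise from the scanner output (8455).

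Each gene was tested on its brightest probe by mean, provided 3 or more of the 12 arrays had it well above background and every group had 2 or more arrays with a value. limma 3.58.1 in R 4.3.3 (with version 1.17.8 of the data.table package) was fitted to all 12 arrays as 4 group means with 5 contrasts, Benjamini-Hochberg adjusted over 15061 genes, threshold 0.05; SE and 95% intervals are those of the fit. The fit was tested on simulated data. A probe below background or saturated on all arrays of a group has only a bound ("at least"). The number of arrays limits precision; no counts or depth exist.

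The 7 genes, the comparison lists, the motifs and the rule for named genes were chosen with earlier results of these data known. The rule names all 7 genes, the 3 genes most like each, and from each list up to 4 genes a direction by size that passed with groups that did not overlap. Alox5, Cyp4f13 and the saturated Adam8, Hp, Slpi, Mpo, Ctsg and Ms4a3 fall outside it and were chosen after their values were seen. Alternatives were normexp (offset 50), quantile and median scaling, 2 other filters, other probe choices, slide as a block or within slides, a replicate block, the authors' rounded values, trend and robust moderation, and leaving out each array. Figures used Python 3.11.15 and matplotlib 3.10.9.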

Additional observations from a re-analysis of the deposited data

How the results depend on the processing

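The 4-OHT direction of all 7 genes held in both vectors under every alternative run. The count of genes that passed was 6 to 7 of 7 in shRNA cells and 5 to 7 of 7 in control cells, and 7 of 7 without any 1 array. The losses were Ltf in shRNA cells with normexp (0.45, adjusted p = 0.155), and Ltf (2.43, adjusted p = 0.0833) and Lcn2 (0.81, adjusted p = 0.0940) in control cells within slide 1, which leaves 1 array after 4-OHT, assumed to vary like the rest. Within slides, Camp changed by -2.62 on slide 3 (shRNA) and by -2.93 on slide 1 (control), Mmp8 by 2.88 and 3.19, Mmp9 by 6.41 and 6.59, and Cyp4f18 by 1.81 and 1.99.

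Between the vectors after 4-OHT the count was 0 to 1: Lcn2 passed with a replicate block (adjusted p = 0.0413), with trend and robust moderation (0.0247) and without control array B before 4-OHT (0.0346). The letters were not shown to pair arrays: deviations of same-letter arrays correlated between -0.0358 and 0.259 across 4-OHT (5 of 6 arrays best with their own letter) and between -0.0871 and 0.304 across vectors (3 of 6); the block changed no other call among the 7 genes. Before 4-OHT the count was 0 throughout, also for the difference between responses. Over all genes, 57 passed between vectors before 4-OHT, against 394 with quantile scaling, 185 with the replicate block, 26 with median scaling, 2 with normexp and 0 with slide as a fixed or random block; after it 2512 passed, against 1267 with median scaling, 1 with slide fixed and 0 with slide random.

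Only values that missed the threshold turned sign, and the cause was not tested. With slide as a fixed block, shRNA less control before 4-OHT was 0.15 for Camp, 0.18 for Ngp, -0.083 for Mmp9 and 0.16 for Cyp4f18; after 4-OHT it was 0.34 for Ltf, 0.47 for Camp, 0.50 for Ngp, 0.0028 for Mmp8 and -0.26 for Mmp9; the difference between responses was 0.33 for Ngp and -0.063 for Lcn2. With slide as a random block the values were 0.025 for Cyp4f18 before 4-OHT, 0.058 for Ltf after it, and 0.091 for Ngp and -0.035 for Lcn2 as differences between responses. Normexp gave 0.019 for Cyp4f18 before 4-OHT and 0.15 for Mmp9 between responses, the mean of all probes gave Ltf 0.14 after 4-OHT and 0.075 between responses, the deposited table gave Lcn2 -0.0014 and median scaling gave Cyp4f18 0.016 between responses. Leaving out 1 array gave ranges across 0 before 4-OHT for Ngp (-0.34 to 0.10) and Mmp8 (-0.025 to 0.43), after it for Ltf (-0.19 to 0.0045) and Mmp9 (-0.0026 to 0.20), and between responses for Camp (-0.0018 to 0.45), Lcn2 (-0.15 to 0.085), Mmp9 (-0.51 to 0.060) and Cyp4f18 (-0.071 to 0.060). Signal over background limits Ltf, and Mmp9 before 4-OHT.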
